A study of Homo sapiens with 12 samples.

Results

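The genes described here are those of the epidermal growth factor (EGF) receptor family measured in a breast cancer cell line: the receptors EGFR and ERBB3, the ligands HBEGF, EREG, TGFA and BTC, and the receptor inhibitor ERRFI1. They were taken by gene symbol from a fixed list of 9 genes, and 7 of the 9 had a probe set that carries exactly 1 gene symbol, out of 22395 genes with such a probe set. The probe set of ERBB2 carries a second symbol and none was found under the symbol AREG, so these 2 genes are not analysed here. Each of the 7 had 1 probe set, and all 7 passed the filter on low values, which kept 20572 genes. MDA-MB-231 is an established human breast cancer cell line of metastatic origin that lacks hormone receptors. The cells received TNFα at 40 ng/ml together with apigenin at 40 µM, TNFα alone at 40 ng/ml, apigenin alone at 40 µM, or no treatment, and RNA was taken after 24 h. Each of the 4 groups had 3 arrays, 12 in all. TNFα is an inflammatory cytokine and apigenin a plant flavone, both prepared in a buffered salt solution per the labels. The labels state neither what vehicle the untreated cells had nor whether the 3 samples of a group were separate cultures. The spread behind every p-value is therefore that of these samples alone and may be technical.

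EGF receptor family members are cell-surface tyrosine kinases that pair up when a ligand binds and then feed the RAS and ERK kinase cascade and the PI3 kinase pathway. Most of their ligands are made as membrane-anchored precursors that proteases of the ADAM family cut loose, so the receptor, the ligand and the protease all set how much signal a cell receives. Triple-negative breast cancer lines often carry much EGFR, and signalling through it turns on its own brakes, among them ERRFI1, the Sprouty proteins and the dual-specificity phosphatases.

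Values are log2 expression values as deposited, so a difference of 1 is a doubling. A call means an adjusted p below 0.05 from limma with Benjamini-Hochberg adjustment over all 20572 genes kept. Array medians lay between 2.09 and 2.16 in a range of values from 0.54 to 12.5. Arrays numbered 3 had the lowest score of their group on the second principal component in all 4 groups, and those numbered 2 the highest. The counts of calls were also computed without the arrays numbered 3. The labelled cell type was checked on its markers: VIM read 7.93 to 8.30, AXL 9.88 to 10.19 and CD44 7.29 to 8.32 over the 12 arrays, while the hormone receptors ESR1 (1.84 to 2.44) and PGR (1.37 to 1.84) and the epithelial cadherin CDH1 (1.81 to 2.10) read near the array medians or below them. FOXA1, another luminal marker, was also low, with a median of 1.75 over the arrays. The remaining luminal markers read above the array medians on every array. EPCAM read 4.58 to 5.24, KRT19 4.38 to 5.97 and GATA3 3.65 to 4.67. KRT8 read 2.64 to 3.66 and KRT18 2.93 to 4.04, so the luminal list was not low as a whole. The leukocyte markers PTPRC and CD3E did not pass the filter, whereas CD68, a lysosomal protein listed with them, read 9.52 to 9.95. With apigenin alone against untreated cells, 1 of 6 markers of the mesenchymal-like line (CAV1, -0.60) and 2 of 9 luminal markers (KRT19, -0.95, and KRT18, -0.47) fell, where 6.83% of all genes were lower. No leukocyte or stromal marker was called there. With both treatments against TNFα, CD44 (-0.63) and KRT19 (-0.86) fell (5.92% of all genes lower). With both against untreated cells, CAV1 (-0.58), KRT18 (-0.79) and KRT19 (-1.22) fell (5.37% of all genes lower), and with TNFα alone no marker was called (0.997% of all genes). The part of these changes in the results below was not tested.

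EGFR (probe set 17046135), the receptor for all 4 measured ligands, was lower in both groups that received apigenin. It read 7.50, 7.61 and 7.72 on the 3 arrays with TNFα plus apigenin, 8.71, 8.60 and 8.58 with TNFα alone, 7.17, 7.19 and 7.35 with apigenin alone, and 7.98, 8.03 and 8.31 in untreated cells. The 4 groups did not overlap on any array: apigenin alone was lowest, then the combined treatment, then untreated cells, and TNFα alone was highest. EGFR averaged 7.24 ± 0.10 with apigenin and 8.11 ± 0.18 in untreated cells (SD, n = 3 each), a log2 difference of -0.87 (SE 0.12, limma adjusted p = 4.7e-04) and a 1.83-fold lower level. In cells that also received TNFα it averaged 7.61 ± 0.11 with apigenin and 8.63 ± 0.07 without (SD, n = 3 each), a difference of -1.03 (SE 0.12, limma adjusted p = 1.9e-04), or 2.04-fold. Both of these calls held in all 12 fits that left out 1 array, with differences of -0.93 to -0.77 and -1.08 to -0.97. In a bulk measurement, fewer cells that express a gene and less of its RNA per cell cannot be told apart.

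TNFα alone gave EGFR values above all untreated arrays, but the difference of 0.53 (SE 0.12, 95% confidence interval 0.27 to 0.79) missed the threshold (limma adjusted p = 0.0628). It passed without untreated replicate 3 (0.63, adjusted p = 0.0314) and under 3 other settings of the fit. On top of apigenin, TNFα gave a difference of 0.37 (SE 0.12, limma adjusted p = 0.492). The combined treatment left EGFR below untreated cells, 7.61 ± 0.11 against 8.11 ± 0.18, a difference of -0.50 (SE 0.12, limma adjusted p = 0.0155). This call was lost without untreated replicate 3 (-0.40, adjusted p = 0.0598), without replicate 1 of the combined treatment (-0.44, adjusted p = 0.0728) and without all arrays numbered 3 (-0.45, adjusted p = 0.0668).

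ERBB3 (probe set 16752397), which has little kinase activity of its own and binds neuregulins, read low throughout. Its values were 1.96, 2.11 and 1.72 with both treatments, 1.84, 2.10 and 1.90 with TNFα, 2.06, 1.99 and 1.95 with apigenin, and 2.0, 2.52 and 2.22 in untreated cells. These lie around the array medians, and the groups overlapped in each of the 5 comparisons between groups. No comparison was called; the difference from untreated cells was -0.30 (SE 0.15, limma adjusted p = 0.467) with TNFα and -0.24 (SE 0.15, adjusted p = 0.376) with apigenin.

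**Figure D1:**
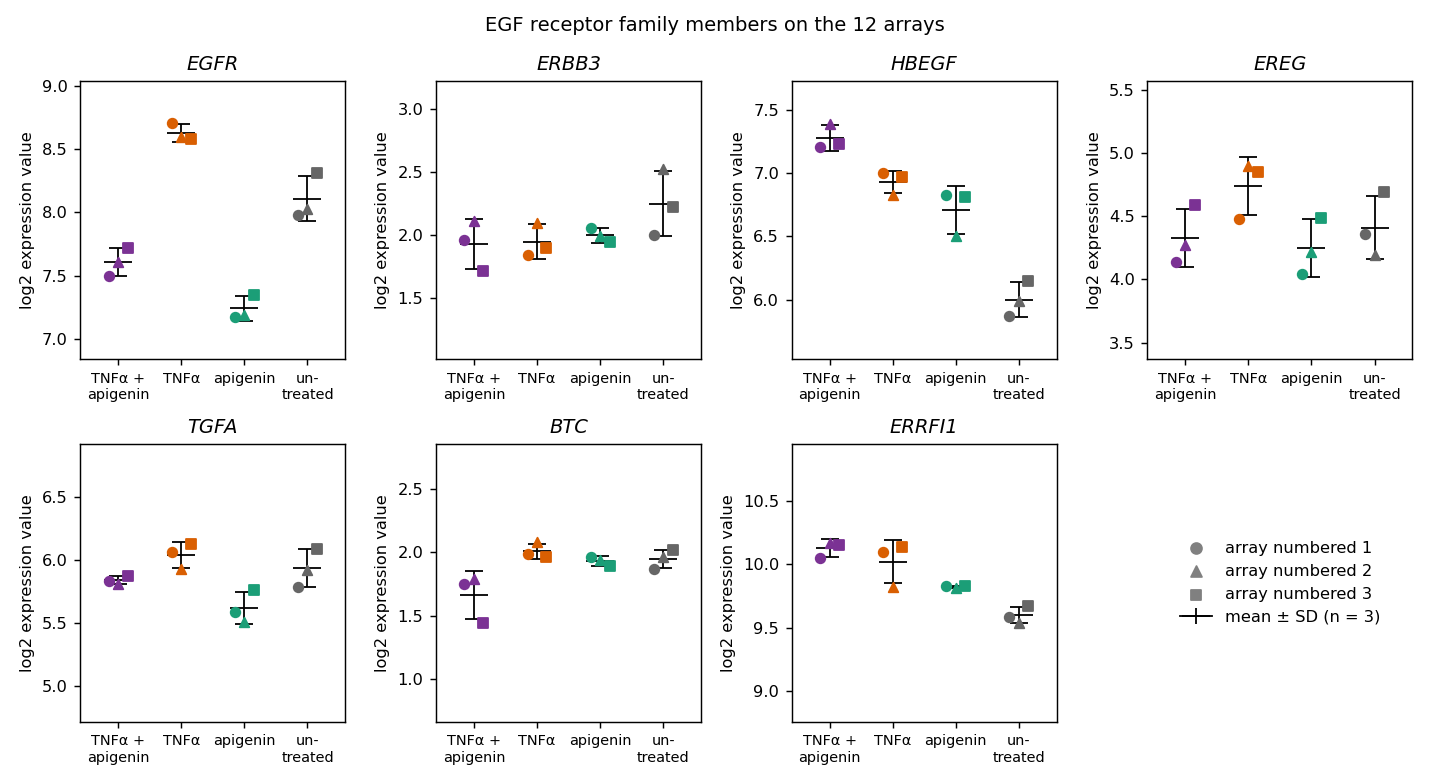
Log2 expression values of the 7 measured members by group: each point is 1 array, its shape gives the replicate number, and black marks give the mean and SD of 3 arrays. Every panel spans the same height on the log2 scale. EGFR separates the 4 groups, with 7.17 to 7.35 under apigenin and 7.98 to 8.31 in untreated cells, while HBEGF lies above the untreated arrays (5.87 to 6.15) in all 3 treated groups.

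HBEGF (probe set 17000724), heparin-binding EGF-like growth factor, a ligand of EGFR and ERBB4, was higher than in untreated cells under every treatment. The arrays with TNFα plus apigenin read 7.21, 7.39 and 7.23, those with TNFα alone 7.0, 6.83 and 6.97, those with apigenin alone 6.83, 6.50 and 6.81, and those of untreated cells 5.87, 5.99 and 6.15. Every treated array lay above every untreated one, and the combined treatment lay above both single treatments on every array. TNFα raised HBEGF by 0.93 (SE 0.13, limma adjusted p = 0.00204), or 1.90-fold, with means of 6.93 ± 0.09 against 6.0 ± 0.14 in untreated cells (SD, n = 3 each). Apigenin raised it by 0.71 (SE 0.13, limma adjusted p = 0.00241), or 1.63-fold, to a mean of 6.71 ± 0.19. With both it was 1.27 above untreated cells (SE 0.13, limma adjusted p = 3.2e-05), or 2.42-fold. All 3 calls held in each of the 12 fits without 1 array. The combined treatment differed from TNFα alone by 0.34 (SE 0.13, limma adjusted p = 0.112) and from apigenin alone by 0.57 (SE 0.13, adjusted p = 0.141), neither of which passed.

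The 2 members with the largest F statistics over the 4 groups, EGFR and HBEGF, thus took opposite directions with apigenin alone. The stretches of 250 bases before their transcription starts are shown as reference sequence for this pair, from RefSeq (GRCh38.p14), with matches to the motifs searched in capitals. The table held 2 windows for EGFR, and the one at the annotated start of the gene is shown.
EGFR, chr7:55018767-55019016, plus strand: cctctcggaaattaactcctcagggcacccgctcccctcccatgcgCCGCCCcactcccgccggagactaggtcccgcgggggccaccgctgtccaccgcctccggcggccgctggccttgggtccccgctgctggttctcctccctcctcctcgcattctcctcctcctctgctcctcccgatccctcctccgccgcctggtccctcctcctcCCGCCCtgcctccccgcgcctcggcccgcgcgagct
HBEGF, chr5:140346604-140346853, minus strand: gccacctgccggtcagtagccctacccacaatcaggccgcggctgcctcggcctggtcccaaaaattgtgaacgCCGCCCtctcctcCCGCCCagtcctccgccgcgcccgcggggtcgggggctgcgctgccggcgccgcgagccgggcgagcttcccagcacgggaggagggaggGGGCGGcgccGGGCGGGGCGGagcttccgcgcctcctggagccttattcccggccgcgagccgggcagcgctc
The 4 motifs were searched on both strands. The capitals are all GC boxes (GGGCGG, or CCGCCC on the other strand), the site of SP1-type factors. EGFR had 2, beginning 204 and 36 bases before the start, and HBEGF had 5, beginning 176, 163, 73, 63 and 58 bases before it, the last 2 sharing a base. Of all 35116 promoter windows of this length 42.6% held a GC box. Neither of the stretches shown held the AP-1 site TGANTCA (6.57% of all windows), the cyclic AMP response site core TGACGT (7.1%) or the NF-κB-type site made of GGG, 2 bases of any kind and TTTCC (1.73%). The other EGFR window, whose start lies 90822 bases downstream, held 2 AP-1 matches and none of the other motifs. The stretches shown are GC-rich, 73.6% and 76.4% against a median of 58% over all windows.

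**Figure D2:**
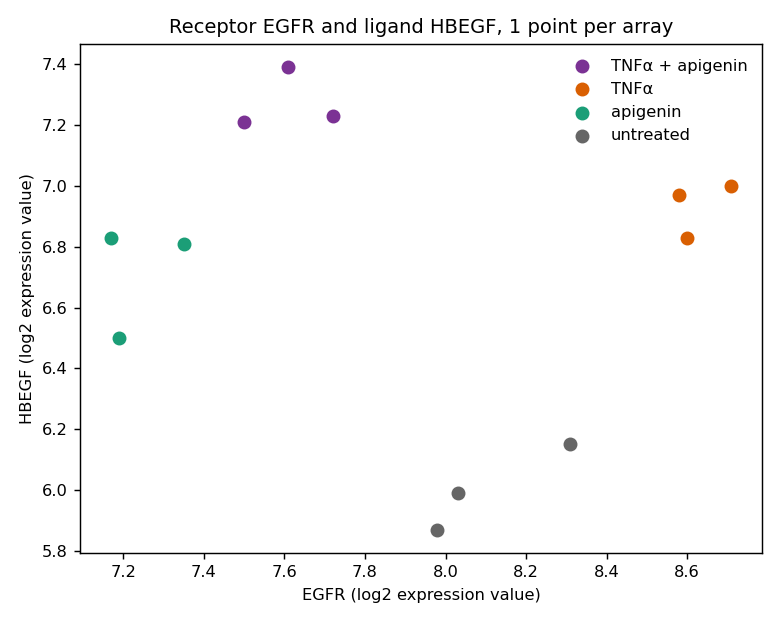
HBEGF against EGFR, both as log2 expression values, with 1 point per array and 3 arrays per group. The 4 groups form separate clusters: the arrays with apigenin, alone or with TNFα, sit at EGFR values of 7.17 to 7.72, and the untreated arrays hold the lowest HBEGF values.

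EREG (probe set 16967843), epiregulin, another ligand of EGFR and ERBB4, was not called in any comparison. It read 4.14, 4.27 and 4.59 with both treatments, 4.48, 4.90 and 4.85 with TNFα, 4.04, 4.22 and 4.49 with apigenin, and 4.36, 4.19 and 4.69 in untreated cells. The groups overlapped in all 5 comparisons. The TNFα group had the highest mean, 4.74 ± 0.23 against 4.41 ± 0.25 in untreated cells (SD, n = 3 each), a difference of 0.33 (SE 0.18, limma adjusted p = 0.512). The combined treatment differed from TNFα alone by -0.41 (SE 0.18, limma adjusted p = 0.182).

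TGFA (probe set 16898788), transforming growth factor α, which binds EGFR, had its lowest values with apigenin alone. It read 5.83, 5.81 and 5.87 with both treatments, 6.06, 5.93 and 6.13 with TNFα, 5.59, 5.51 and 5.76 with apigenin, and 5.79, 5.92 and 6.09 in untreated cells. The apigenin arrays lay below the untreated ones without overlap, by a mean of 0.32 (log2 difference -0.32, SE 0.12), and this did not pass (limma adjusted p = 0.114). With quantile normalisation the same difference was -0.35 and passed (adjusted p = 0.0259).

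BTC (probe set 16976868), betacellulin, a ligand of EGFR and ERBB4, read below the array medians on every array. Its values were 1.75, 1.79 and 1.44 with both treatments, 1.99, 2.08 and 1.96 with TNFα, 1.96, 1.94 and 1.89 with apigenin, and 1.87, 1.96 and 2.02 in untreated cells. The combined treatment was below the other 3 groups on every array, by -0.35 against TNFα alone (SE 0.12, limma adjusted p = 0.0764), -0.27 against apigenin alone (SE 0.12, adjusted p = 0.657) and -0.29 against untreated cells (SE 0.12, adjusted p = 0.134). Its lowest value, 1.44, lay under the level of the filter on low values (1.60 to 1.64), so these differences lie near the floor. No comparison was called.

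ERRFI1 (probe set 16681304), also known as MIG6, encodes an inhibitor that binds the kinase domain of EGFR. It read 10.05, 10.17 and 10.15 with both treatments, 10.10, 9.82 and 10.14 with TNFα, 9.83, 9.81 and 9.83 with apigenin, and 9.58, 9.54 and 9.67 in untreated cells, so that every treated array lay above every untreated one. Only the combined treatment passed against untreated cells, with means of 10.13 ± 0.07 and 9.60 ± 0.06 (SD, n = 3 each), a difference of 0.53 (SE 0.11, limma adjusted p = 0.00699), and this call held in all 12 fits without 1 array. TNFα alone gave 0.42 (SE 0.11, limma adjusted p = 0.118) and apigenin alone 0.23 (SE 0.11, adjusted p = 0.259). The TNFα difference passed without TNFα replicate 2 (0.52, adjusted p = 0.0443). The confidence interval of the apigenin difference ran from -0.02 to 0.47.

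Over the family, TNFα against untreated cells called 1 of the 7 members, HBEGF, higher, where 0.997% of all genes were called in either direction and 0.778% higher. Apigenin against untreated cells called 2, EGFR lower and HBEGF higher, against 11.4% of all genes. The combined treatment against TNFα called 1, EGFR lower, against 10.1% of all genes. None was called between the combined treatment and apigenin alone with limma, where 0.209% of all genes were called; 4 members and 1489 of the 20572 genes had an unadjusted p below 0.05 there. Against untreated cells the combined treatment called 3, HBEGF and ERRFI1 higher and EGFR lower, against 12.5% of all genes in either direction, 7.15% higher and 5.37% lower. The median log2 difference of the 7 members was 0.33 with TNFα, -0.16 with apigenin and -0.20 between the combined treatment and TNFα, beside 0.02, -0.02 and -0.01 over all genes. An unadjusted p below 0.05 was found for 3 members with TNFα (2387 of all genes), 3 with apigenin (4638), 4 with both against TNFα (4476) and 4 with both against untreated cells (4937). These comparisons share arrays, so their calls are not independent of each other.

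Whether TNFα acted differently in the presence of apigenin was tested by the interaction, the TNFα response with apigenin minus that without. No member was called with limma, against 0.0535% of all genes, 0.00972% higher and 0.0437% lower, and no member had an unadjusted p below 0.05, against 870 of all genes. HBEGF came to -0.36 (SE 0.18, 95% confidence interval -0.75 to 0.02, limma adjusted p = 0.999), with a TNFα response of 0.57 in the presence of apigenin and 0.93 in its absence. For EGFR the interaction was -0.15 (interval -0.53 to 0.22, adjusted p = 0.999) and for ERRFI1 -0.12 (interval -0.46 to 0.23, adjusted p = 0.999). These intervals leave room for differences of about the size of the responses themselves, so the test does not show that the 2 treatments act independently.

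**Figure D3:**
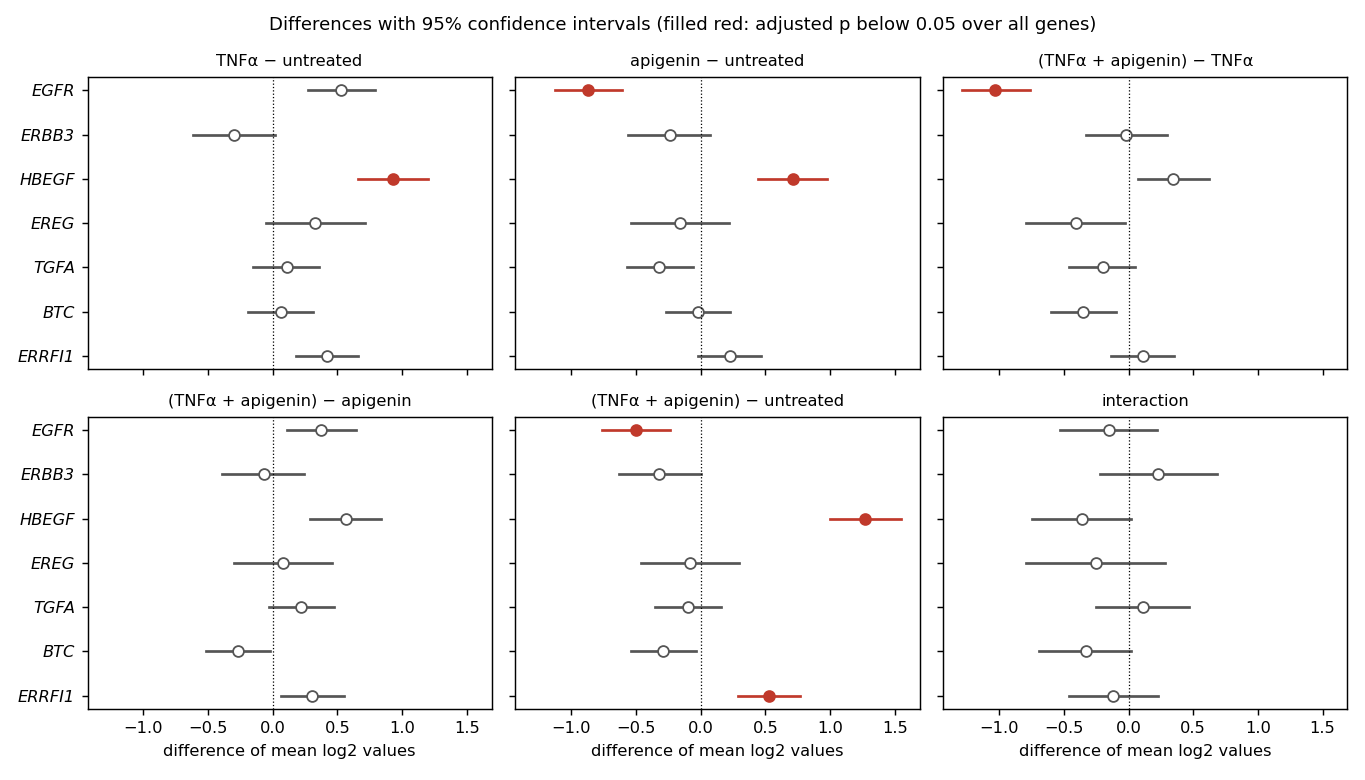
Differences of mean log2 values for the 7 members in the 5 comparisons between groups and the interaction, with 95% confidence intervals from limma. Filled red symbols are calls at an adjusted p below 0.05 over all genes: HBEGF in 3 panels, EGFR in 3 and ERRFI1 in 1.

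Among the other receptor and ligands of the family, none of 7 was called with TNFα (limma; 0.778% of all genes higher and 0.219% lower), and 1 of 7, NRG1, was lower with apigenin (6.83% of all genes lower). NRG1 encodes neuregulin 1, a ligand of ERBB3 and ERBB4. It read 3.10, 3.12 and 3.22 with both treatments, 4.02, 4.14 and 4.30 with TNFα, 2.87, 2.90 and 2.98 with apigenin, and 3.69, 3.71 and 4.24 in untreated cells, so the apigenin groups lay below both groups without it. The difference was -0.96 with apigenin against untreated cells (SE 0.15, limma adjusted p = 8.2e-04) and -1.01 with both treatments against TNFα (SE 0.15, adjusted p = 7.2e-04). The other 6 stayed uncalled in every comparison, the receptor ERBB4 and the ligand EGF among them. Group means were 1.55 to 1.68 for ERBB4, 1.44 to 1.80 for EPGN, 1.71 to 1.79 for NRG4, 1.82 to 2.03 for NRG3 and 1.99 to 2.15 for EGF. These lay near the filter level (1.60 to 1.64) or below or around the array medians, so a missing call says little about them. NRG2 averaged 2.31 to 2.61.

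Of 9 genes of ligand shedding 4 fell and none rose with apigenin against untreated cells (6.83% of all genes lower and 4.55% higher), and 4 of 9 were lower and none higher with both treatments against TNFα (5.92% of all genes lower). RHBDF2, or iRhom2, which escorts the sheddase ADAM17 to the cell surface, read 4.38, 4.33 and 4.46 with both, 5.69, 5.44 and 5.44 with TNFα, 3.73, 3.63 and 3.78 with apigenin, and 4.11, 4.28 and 4.66 in untreated cells. TNFα raised it by 1.17 (SE 0.14, limma adjusted p = 7.7e-04), the only call among the 9 in that comparison (0.778% of all genes higher), and apigenin lowered it (-0.63, SE 0.14, adjusted p = 0.0096, and -1.13, SE 0.14, adjusted p = 2.7e-04, in the presence of TNFα). The call for apigenin alone was lost without all arrays numbered 3 (-0.51, adjusted p = 0.072). ADAM10, a sheddase of betacellulin and EGF, read 7.50 to 7.69 with apigenin against 8.28 to 8.73 in untreated cells (-0.94, SE 0.13, limma adjusted p = 3.8e-04) and 7.61 to 7.67 with both against 8.15 to 8.35 with TNFα (-0.63, adjusted p = 0.00669). TIMP3, an inhibitor of these proteases, fell as well (-0.68 and -0.49, adjusted p = 8.2e-04 and 0.00743), so the list holds a protease and its inhibitor moving the same way. RHBDL2, a rhomboid protease, fell by 0.94 with apigenin (adjusted p = 0.0203) and by 1.09 with both against TNFα (adjusted p = 0.0104). Its first call was lost without untreated replicate 3, apigenin replicate 1 or apigenin replicate 3 (-0.93 to -0.70, adjusted p 0.0556 to 0.0993), and its second without replicate 1 of the combined treatment (-1.0, adjusted p = 0.0525). ADAM17 itself was not called (-0.05 with apigenin, adjusted p = 0.882). List medians were 0.13 with TNFα, -0.17 with apigenin and -0.21 with both against TNFα.

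Of the adaptors and the core cascade 18 of 25 had a tested probe set. With TNFα 1 of 18 rose (0.778% of all genes): STAT3, a transcription factor activated below the receptors, at 8.36, 7.97 and 8.29 against 7.50, 7.54 and 7.78 in untreated cells (0.60, SE 0.13, limma adjusted p = 0.0498). That call was lost in 10 of the 12 fits without 1 array (0.52 to 0.60, adjusted p 0.0594 to 0.234), all but those without untreated replicate 3 or TNFα replicate 2. With apigenin 3 of 18 were lower and none higher (6.83% and 4.55% of all genes): MAP2K1, the ERK kinase MEK1 (-0.53, SE 0.11, adjusted p = 0.00686), the RAF family kinase ARAF (-0.63, SE 0.16, adjusted p = 0.0179) and the RAS activator SOS2 (-0.50, SE 0.13, adjusted p = 0.0244). With both against TNFα, MAP2K1 (-0.57, adjusted p = 0.00583) and ARAF (-0.56, adjusted p = 0.0371) were lower, 2 of 18 (5.92% of all genes). Without untreated replicate 3, apigenin replicate 1 or apigenin replicate 2, ARAF and SOS2 lost their calls with apigenin (-0.63 to -0.50 and -0.49 to -0.40). ARAF also lost that against TNFα in 6 of the 12 fits (-0.61 to -0.46, adjusted p 0.0519 to 0.141): those without TNFα replicate 1 or 3, apigenin replicate 1, or any replicate of the combined treatment. Medians of the list were 0.13 with TNFα, -0.10 with apigenin and -0.10 with both against TNFα.

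The attenuators of the receptors and the cascade went both ways with apigenin. Of 21 tested, 5 were higher and 6 lower against untreated cells (4.55% and 6.83% of all genes), with a median of -0.00, and 5 were higher and 4 lower with both against TNFα (4.21% and 5.92% of all genes), with a median of 0.03. The MAP kinase phosphatase DUSP1 rose by 1.30 with apigenin (SE 0.15, limma adjusted p = 9.6e-05), reading 7.29, 7.20 and 7.45 against 6.10, 5.75 and 6.17 in untreated cells, and by 0.90 with both against TNFα (adjusted p = 0.00174). SOCS4, which promotes EGFR degradation, rose by 0.94 (adjusted p = 7.0e-04), and the ERK phosphatase DUSP5 was 0.94 higher with both against TNFα (adjusted p = 0.00278). Lower were the Sprouty gene SPRY1 (-1.08, SE 0.13, adjusted p = 1.9e-04) and the RAS pathway inhibitor SPRED1 (-0.99, SE 0.20, adjusted p = 0.00493) with apigenin. Sprouty and dual-specificity phosphatase genes each went both ways with apigenin. SPRY4 (0.78, adjusted p = 8.5e-04), SPRY2 (0.46, adjusted p = 0.0378) and DUSP5 (0.65, adjusted p = 0.0214) were higher. DUSP6 (-0.53, adjusted p = 0.0056) and DUSP4 (-0.45, adjusted p = 0.0467) were lower. The calls of SPRY4, SPRY2, DUSP5, DUSP6 and DUSP4 with apigenin alone were not checked in the fits without 1 array. With both against TNFα, the ubiquitin ligase gene CBLB (-1.33, SE 0.22, adjusted p = 0.00203) and the receptor antagonist LRIG1 (-0.95, SE 0.15, adjusted p = 0.00126) were lower. With apigenin alone LRIG1 was lower as well (-0.53, limma adjusted p = 0.0339), whereas CBLB did not pass (-0.65, adjusted p = 0.0871). SPRY1 was also the 1 attenuator called with TNFα alone, 3.51, 3.36 and 3.70 against 4.39, 4.14 and 4.59 in untreated cells (-0.85, SE 0.13, adjusted p = 0.00617), a call lost with only the groups compared in the fit (-0.85, adjusted p = 0.0821) and without all arrays numbered 3 (-0.83, adjusted p = 0.0611).

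Transcriptional targets of the cascade rose more often than they fell with apigenin: 8 of 18 rose and 2 fell against untreated cells (4.55% of all genes higher and 6.83% lower), with a median of 0.39 beside -0.02 over all genes. The 18 include the genes of ELK1 (-0.56) and SRF (-0.17), transcription factors that carry the signal to such targets, neither of them called. EGR1, an immediate early transcription factor gene, read 6.57, 6.19 and 7.04 with apigenin against 4.05, 4.27 and 4.72 in untreated cells (2.25, SE 0.22, limma adjusted p = 3.4e-05). The AP-1 subunit gene JUNB read 6.68, 6.56 and 6.54 against 4.84, 4.51 and 4.65 (1.93, SE 0.12, adjusted p = 1.1e-06), with no overlap for either gene. FOS, another AP-1 subunit gene, rose by 0.89 (SE 0.26, adjusted p = 0.0433). This call was lost in 6 of the 12 fits without 1 array (0.67 to 0.89, adjusted p 0.0527 to 0.172): without untreated replicate 2 or 3, TNFα replicate 3, apigenin replicate 1 or 3, or replicate 1 of the combined treatment. ETV4, an ETS-family target of ERK signalling, went the other way, 4.28, 4.27 and 4.62 against 5.27, 5.45 and 5.72 (-1.09, SE 0.15, adjusted p = 3.8e-04). With both against TNFα, 6 of 18 were higher and 2 lower (median 0.28, with 4.21% and 5.92% of all genes called), with EGR1 at 1.82 (adjusted p = 2.3e-04), JUNB at 1.20 (adjusted p = 5.7e-05), the stress factor gene ATF3 at 0.91 (adjusted p = 0.00217) and ETV4 at -1.20 (adjusted p = 2.3e-04). TNFα alone raised 2 of 18 (median 0.31, with 0.778% of all genes higher), JUNB by 0.91 (SE 0.12, adjusted p = 0.00157) and the early response gene IER3 by 0.60 (SE 0.10, adjusted p = 0.0115). IER3 lost its call without untreated replicate 1 or TNFα replicate 1 (0.58 and 0.60, adjusted p 0.0586 to 0.062), and JUNB without all arrays numbered 3 (0.91, adjusted p = 0.0501).

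**Figure D4:**
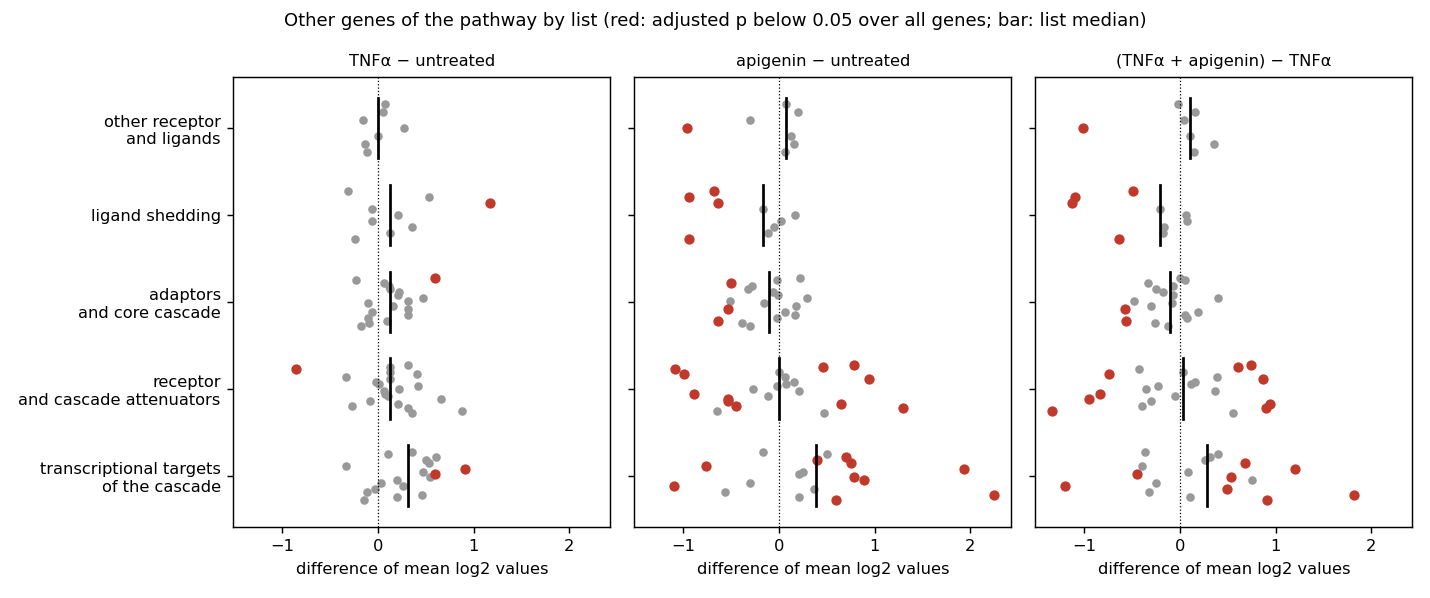
Differences of mean log2 values for the other genes of the pathway in 5 lists and 3 comparisons: each point is a gene, red points are calls at an adjusted p below 0.05 over all genes, and the bar is the list median. With apigenin the attenuators spread to both sides of 0 while the targets lie mostly above it (median 0.39).

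A moderated F test over the 4 groups called 3 of the 7 members, EGFR (adjusted p = 2.3e-05), HBEGF (adjusted p = 8.1e-05) and ERRFI1 (adjusted p = 0.0184), with limma, against 16.1% of all genes. The protein-coding genes whose values over the 12 arrays were most like those of EGFR were KLHL5 (Pearson r = 0.993), LPXN (0.984) and TGFBR2 (0.983). For HBEGF they were SDC4 (0.986), ERN1 (0.970) and MCL1 (0.970), and for ERRFI1 they were TRIM33 (0.968), HNRNPAB (0.966) and DNAJC11 (0.964). The 12 points fall into the 4 treatment groups, so these correlations carry the differences between the group means.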

How the data were processed

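Total RNA of 12 samples was hybridised to 1 whole-transcript array each, per the labels. Per the submitters' processing notes, the authors used Affymetrix Expression Console. The deposited table has 1 value per probe set and array, and the range of the values is that of a log2 scale. Which version and summary algorithm they ran is not given in the sources. The number of arrays limits the precision. The table held 53617 probe sets, of which 23871 carry exactly 1 gene symbol, updated through the gene identifier in RefSeq; 1842 with several symbols were not used. Probe sets were kept when they reached the 25th percentile of their array (1.60 to 1.64) on at least 3 arrays, and a gene was read from its kept probe set with the highest mean, which left 20572 genes. All 12 arrays entered 1 linear model of the 4 groups in limma 3.58.1 under R 4.3.3 (8 residual degrees of freedom, eBayes defaults), and the procedure was tested on simulated data. Levels of different probe sets were set side by side only in the check of cell type markers. Low-reading genes were set against the array medians or the filter level.

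The 9 members and the gene lists were chosen with earlier results of these data known. Of each list, up to 4 called genes with the largest differences in each of the first 3 comparisons (TNFα and apigenin against untreated cells, and both against TNFα) are named. SPRY2, SPRY4, DUSP4, DUSP5, DUSP6, LRIG1 and CBLB with apigenin alone were added after their values were seen. Likeness was Pearson's r over the 12 arrays among protein-coding genes. RefSeq held a promoter window for 6 of the 7 measured members. Alternatives were quantile normalisation, no filter or one at the array median, the replicate number as a block, eBayes with trend and robust, only the groups compared, the mean of a gene's probe sets, and leaving out each array. Leaving out all arrays numbered 3 was added after seeing the data.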

Additional observations from a re-analysis of the deposited data

How the results depend on the processing

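With TNFα against untreated cells the 1 member called became 2 with quantile normalisation, 2 with the replicate block and 3 with the trend and robust setting, and lay between 1 and 2 without each array. With both against TNFα the 1 called became 2 with quantile normalisation and 3 with the replicate block. The added calls were EGFR with TNFα (0.48, 0.53 and 0.53 under quantile normalisation, the block and trend with robust), ERRFI1 with TNFα under trend with robust (0.42), and EREG under the block (-0.41) and BTC under quantile normalisation (-0.37) and the block (-0.35) with both against TNFα. TGFA with apigenin passed under quantile normalisation (-0.35) and the block (-0.32). Without each array the counts lay between 2 and 3 for both against untreated cells, and stayed at 2, 1, 0 and 0 for apigenin, both against TNFα, both against apigenin and the interaction. Reversals were in uncalled values near 0: EREG between both and apigenin under quantile normalisation (-0.00), and, without all arrays numbered 3, BTC with apigenin (0.03) and ERBB3 with both against TNFα (0.06) and against apigenin (0.01); without single arrays BTC with apigenin ranged from -0.06 to 0.01, ERBB3 from -0.11 to 0.09 and -0.16 to 0.03, and EREG from -0.05 to 0.20 against apigenin and -0.21 to 0.05 against untreated cells. The cause was not tested. The numbers in the labels were not taken as pairs, because the labels do not say what they mark. The deviations of same-numbered arrays correlated at 0.018 to 0.464 over 18 pairs of groups, above 0.1 in 13. They correlated at 0.018 to 0.102 for number 1, 0.201 to 0.376 for number 2 and 0.302 to 0.464 for number 3. Arrays numbered 2 and those numbered 3 thus shared part of their deviations, which the main fit does not take into account. With the block 632 genes in all were called with TNFα, 3315 with both against TNFα and 100 with both against apigenin, beside 205, 2085 and 43 without it. With only the groups compared in the fit, 73 were called with TNFα and 21 with both against apigenin, the interaction has no value, and the calls of STAT3 with TNFα (0.60, adjusted p = 0.233), IER3 with TNFα (0.60, 0.11), SOS2 with apigenin (-0.50, 0.072) and FOS with apigenin (0.89, 0.0577) were lost; 3 were called for the interaction under trend with robust, beside 11. Without single arrays the genes called ranged from 98 to 314 with TNFα, 1534 to 2393 with apigenin, 1191 to 2202 with both against TNFα, 15 to 47 with both against apigenin, 1730 to 2642 with both against untreated cells and 2 to 6 for the interaction. Of 36 calls on other pathway genes named by size 25 held in every alternative, and none reversed. The calls of SPRY2, SPRY4, DUSP4, DUSP5, DUSP6 and LRIG1 with apigenin alone are not among these 36 and were not followed through the alternatives. Without all arrays numbered 3 the calls of RHBDL2 with apigenin, STAT3, ARAF, SOS2, IER3 and FOS were lost as well as those given with the results.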

Other observations

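A few pathway genes passed between the combined treatment and untreated cells without passing under either treatment alone. They were chosen after their values were seen. In that comparison 7.15% of all genes were called higher. The share of all genes that passed there but under neither treatment alone was not computed. Nor were the calls of these pathway genes there followed through the alternatives. PIK3R1, which encodes a regulatory subunit of PI3 kinase, was 0.87 higher with both (SE 0.15, limma adjusted p = 0.00157), against 0.47 with TNFα (adjusted p = 0.211) and 0.29 with apigenin (adjusted p = 0.268). CBL, which encodes a ubiquitin ligase of activated EGFR, was 0.91 higher with both (SE 0.17, limma adjusted p = 0.00298), against 0.36 with TNFα (adjusted p = 0.438) and 0.47 with apigenin (adjusted p = 0.104). The AP-1 subunit gene JUN was 0.56 higher with both (SE 0.15, limma adjusted p = 0.0293), against 0.47 with TNFα (adjusted p = 0.235) and 0.25 with apigenin (adjusted p = 0.383). The interactions were 0.11 for PIK3R1, 0.08 for CBL and -0.16 for JUN (limma adjusted p = 0.999 each). None of these responses to both was thus shown to differ from the sum of the single responses.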
